A study of Arabidopsis thaliana with 72 samples.

Results

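WL_HM2 is one of 7 Hybrid Mimic lines of Arabidopsis thaliana from the cross of Wassilewskija (Ws) and Landsberg erecta (Ler). Its members here are the 3 WL_HM2 libraries of the 72 libraries in the series, chosen by their label. The study made F1 hybrids, selected large plants over successive selfed generations, and sequenced leaf RNA to see which expression changes the selected lines hold. Each WL_HM2 library holds rosette leaves of 1 F7 plant of 25 days, grown on plates and then in soil under long days and without any treatment, and harvested at ZT6 to ZT8, that is 6 to 8 hours after lights on. WL_HM2 is a single line, so its 3 plants are repeats of 1 selected genotype. The parents Ws and Ler have 3 libraries each, of the same age and tissue, and each of their libraries pools 3 plants. The other 6 lines, WL_HM1 and WL_HM3 to WL_HM7, have 18 libraries of 1 F7 plant each, and the F1 hybrids have 6 libraries of 3 pooled plants, 3 from WsxLer and 3 from LerxWs. The mid-parent value (MPV) was built as 3 libraries, each the mean of a Ws and a Ler library with a weight of 50% each. Its spread is therefore not the spread of parent plants.

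Hybrid vigour is the greater size of an F1 hybrid over its parents. A Hybrid Mimic is bred to keep an F1-like rosette after selfing, when most loci have become homozygous, so that each stretch of a chromosome in such a line comes from one parent or the other. Leaf growth draws on cellulose synthesis and on wall-loosening proteins, while salicylic acid and WRKY transcription factors drive defense against biotrophic pathogens, and defense and growth are often seen to move in opposite directions in Arabidopsis leaves.

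Library totals were 19749713 to 21175382 counts in WL_HM2, 17856852 to 23299725 in the other 6 lines, 19941341 to 28527725 in the parents and 17741358 to 28527725 in the whole series. Pairs of WL_HM2 plants differed by a chi-square of 19.8 to 29.6 per gene, where sampling of counts alone gives about 1, so no library was a copy of another. Ler replicate 3, the deepest library, stood apart from Ler replicates 1 and 2 (chi-square per gene 82.4 and 53.1, against 21.9 between those), and WL_HM3 replicate 3 stood apart in its line (74.7 and 57.1, against 19.0). Markers of leaf mesophyll summed to 932800 to 1188000 normalized counts in WL_HM2, 741000 to 981600 in Ws and 824800 to 1110000 in Ler, while the seed storage list was at 0 throughout and the pollen list at 0 to 1.08 in WL_HM2, 0.973 to 9.69 in Ws and 0.805 to 1.97 in Ler. None of the tested markers of mesophyll (6), guard cells (5), trichomes (2), shoot meristem (3), floral organs (7), pollen (1) or root (1) was called against the MPV, and 1 of 3 phloem companion cell markers was lower. In leaf RNA in bulk, fewer cells of a type and less RNA per cell cannot be told apart. The p-values below rest on a spread estimated over all libraries fitted together, which include 2 lines of small plants. For tests against the MPV they also include its averaged libraries. Deviations of same-numbered Ws and Ler libraries from their group means correlated at -0.052, -0.376 and -0.415. Averaging such libraries makes the MPV libraries more alike than the parents.

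Relative to the MPV, WL_HM2 had higher transcript levels of 12 of 15 genes of cellulose and nucleotide-sugar synthesis, and lower levels of 19 of 49 WRKY genes, 11 of 22 salicylic acid and PR genes, 8 of 20 flowering-time genes and 5 of 20 clock genes. In all, 4085 of the 17846 genes tested were called (22.9%), with 1620 up-regulated (9.08% of those tested) and 2465 down-regulated (13.8%). A gene was called when edgeR's quasi-likelihood F test gave a p, adjusted by Benjamini and Hochberg's method over all genes, no greater than 0.05. This is the adjusted p given below, and levels are normalized counts, scaled by TMM (the trimmed mean of M-values) to the mean library size. Down-regulated genes were thus 60.3% of the calls, and 76.9% (3002 of 3903) when libraries were scaled by total counts in place of TMM. Over all genes the median log2 fold change was -0.0035. A change of at least 2-fold was seen in 261 genes up-regulated and 865 down-regulated. The 2 directions are not alike on this measure, because the MPV is averaged on counts. A gene at the level of its higher parent lies at most 2-fold above the MPV. One at the level of its lower parent has no such limit below it. The count of calls fell to 2537 without MPV replicate 2 and to 2547 without MPV replicate 3. With the MPV taken as the mean of the parents' log2 levels, 5303 genes were called, 2606 higher and 2697 lower (50.9%).

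Most of the 4085 genes were called against Ws and not against Ler, which does not show equality with Ler. In the comparison with each parent, 2935 of them (71.8%) differed from Ws and not from Ler, 279 (6.83%) differed from Ler and not from Ws, 828 (20.3%) differed from both parents in the same direction, 19 lay between the parents and 24 differed from neither. Against single parents, WL_HM2 had 7886 genes called against Ws (44% of 17907 tested) and 1506 against Ler (8.41%), 650 of them higher than in Ler (3.63%) and 856 lower (4.78%). Of the 2935 genes that differed from Ws and not from Ler, 1745 were called between Ws and Ler. Of the 4085 genes, 2127 were also called between Ws and Ler, where 5382 genes (30.1%) were called in all. Leaving out Ws replicate 2 brought that count to 3087, and leaving out Ler replicate 1 or 2 to 3292 or 3534.

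Among genes of cellulose and nucleotide-sugar synthesis, 12 of the 15 tested were higher than the MPV and 0 lower, with a median log2 fold change of 0.60 over the list, beside -0.0035 for all genes. The cellulose synthases of the primary wall rose in all 3 plants. CESA1 had normalized counts of 10034, 9392 and 11226 in the WL_HM2 plants, against 6406, 6019.7 and 6660.4 in Ws and 7539, 8311 and 7835 in Ler (log2 fold change 0.52 ± 0.11 SE, edgeR adjusted p = 0.0013). CESA3, which works in the same complex, had 8501, 7363 and 8986 in the WL_HM2 plants, against 4917, 4610.1 and 5055 in Ws and 5994, 6868 and 5778 in Ler (log2 fold change 0.59 ± 0.10 SE, edgeR adjusted p = 1.7e-04). CESA6 had 7679.5, 7299 and 8595 in the WL_HM2 plants, against 3813, 2937 and 3773 in Ws and 4890.4, 5909 and 4826 in Ler (log2 fold change 0.86 ± 0.11 SE, edgeR adjusted p = 1.1e-06). For each of these 3 genes the lowest WL_HM2 plant lay above the highest library of either parent, and all 3 were called against Ws and against Ler. The secondary-wall synthases CESA7 and CESA8 were called against the MPV (log2 fold change 1.07 and 1.07) but not against Ler. CESA7 had 401, 209 and 251 in the WL_HM2 plants, against 62.0, 30.2 and 106 in Ws and 301, 255 and 62.8 in Ler, so that WL_HM2 overlapped Ler, and the calls of both were lost without WL_HM2 replicate 1 or without MPV replicate 3. UGD4, a UDP-glucose dehydrogenase that makes the precursor of pectin and hemicellulose sugars, had 432, 389 and 420.3 in the WL_HM2 plants, against 139.6, 116 and 229.6 in Ws and 307, 335 and 159 in Ler (log2 fold change 0.95 ± 0.22 SE, edgeR adjusted p = 0.0029). AXS1, which turns that precursor into UDP-apiose and UDP-xylose, had 3745, 3539 and 4011 in the WL_HM2 plants, against 2846, 3534 and 3400.2 in Ws and 2400.0, 2543 and 2816 in Ler (log2 fold change 0.37 ± 0.08 SE, edgeR adjusted p = 0.0015). UGD1 and AXS2 did not pass the test, with log2 fold changes of 0.48 and 0.25 at edgeR adjusted p of 0.1 and 0.064. The list count was 8 without WL_HM2 replicate 1 or without MPV replicate 3. Of the 12, 5 differed from both parents in the same direction and 7 from Ws and not from Ler.

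Wall-loosening genes moved less uniformly. Of 25 XTH genes tested, 4 were higher and 0 lower (median 0.35), where 9.08% of all genes were called higher. The count higher was 2 without WL_HM2 replicate 3 or MPV replicate 3. XTH enzymes cut and rejoin xyloglucan chains. XTH8 had 758, 601 and 966 in the WL_HM2 plants, against 41.7, 55.5 and 146 in Ws and 261, 449 and 122 in Ler (log2 fold change 2.11 ± 0.38 SE, edgeR adjusted p = 2.5e-04). XTH4 had 3897, 3154 and 6611 in the WL_HM2 plants, against 801, 1264 and 1446 in Ws and 1414, 2093 and 1045 in Ler (log2 fold change 1.76 ± 0.39 SE, edgeR adjusted p = 0.0019). In both genes each WL_HM2 plant lay above each parent library. XTH7 was called at a log2 fold change of 1.01 but overlapped Ler, with 5096, 4368 and 8495 in the WL_HM2 plants, against 2896, 1297 and 2464 in Ws and 3467, 5254 and 2554 in Ler, and lost its call without WL_HM2 replicate 3 or MPV replicate 3. XTH15 stayed at low counts (46.1, 7.53 and 47.5), and its call was lost in 5 of 6 fits that left out 1 library. XTH9 was not called (1211, 855 and 1158 in the WL_HM2 plants, against 699, 312 and 677 in Ws and 452, 568 and 567 in Ler). Of 13 alpha-expansin genes, 3 were higher (EXPA3, EXPA5 and EXPA6) and 1 was lower. EXPA3 had 1001, 937 and 1150.5 in the WL_HM2 plants, against 469, 258 and 368 in Ws and 414, 729.6 and 334 in Ler (log2 fold change 1.27 ± 0.32 SE, edgeR adjusted p = 0.0045). EXPA9 went the other way, with 71.7, 75.3 and 51.0 in the WL_HM2 plants, against 326, 133 and 233 in Ws and 208, 110.2 and 101 in Ler (log2 fold change -1.48 ± 0.24 SE, edgeR adjusted p = 7.3e-05). EXPA5 and EXPA6 had log2 fold changes of 0.77 and 0.63, and both calls were lost without WL_HM2 replicate 3 or MPV replicate 3.

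Many WRKY genes, which encode transcription factors of plant defense, were lower. Of 49 WRKY genes tested, 19 were down-regulated and 0 up-regulated, with a median of -0.86, where 13.8% of all genes were called lower. Of the 19, 9 differed from both parents in the same direction, 9 from Ws and not from Ler, and 1 from Ler and not from Ws. WRKY53, a factor of senescence and defense, had 63.5, 61.4 and 54.6 in the WL_HM2 plants, against 283, 399 and 358 in Ws and 407, 228 and 175 in Ler (log2 fold change -2.37 ± 0.48 SE, edgeR adjusted p = 7.9e-04), and the groups did not overlap. WRKY26 had 84.0, 70.0 and 80.7 in the WL_HM2 plants, against 276, 1329 and 435 in Ws and 75.7, 79.6 and 175 in Ler (log2 fold change -2.33 ± 0.46 SE, edgeR adjusted p = 6.1e-04), so that WL_HM2 lay at the level of Ler replicates 1 and 2 and far under Ws. WRKY28 had 3.07, 29.1 and 15.4 in the WL_HM2 plants, against 142, 192 and 101 in Ws and 40.3, 40.4 and 80.5 in Ler (log2 fold change -2.63 ± 0.66 SE, edgeR adjusted p = 0.0047). WRKY33, needed for camalexin synthesis, and WRKY18, 2 called genes chosen after their values were seen, had log2 fold changes of -1.73 and -1.72. WRKY50 and WRKY51, which act in salicylic acid-mediated repression of jasmonate responses, had log2 fold changes of -1.39 and -3.47. The call of WRKY51 was lost without WL_HM2 replicate 1, and that of WRKY50 without WL_HM2 replicate 2 or MPV replicate 3. WRKY46 was not called, at a log2 fold change of -1.24 (edgeR adjusted p = 0.058).

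In the list of salicylic acid and PR genes, 11 of 22 tested were lower and 0 higher (median -0.94 over the list), where 13.8% of all genes were called lower. The 11 covered synthesis and its regulators as well as receptors and targets, namely ICS1, CBP60G, SARD1, EDS1, PAD4, NPR1, NPR3, SNC1, ACD6, RLP23 and PR1. CBP60G, an activator of salicylic acid synthesis, had 26.6, 21.5 and 52.2 in the WL_HM2 plants, against 174, 269 and 264 in Ws and 174, 76.3 and 145 in Ler (log2 fold change -2.47 ± 0.56 SE, edgeR adjusted p = 0.0021), below every parent library. RLP23, the receptor for the nlp20 peptide, had 75.8, 53.8 and 142 in the WL_HM2 plants, against 297, 346 and 433 in Ws and 501, 117 and 468 in Ler (log2 fold change -2.00 ± 0.52 SE, edgeR adjusted p = 0.0066), with WL_HM2 replicate 3 above Ler replicate 2. ACD6, an ankyrin protein whose alleles set the level of salicylic acid among accessions, had 699.6, 527 and 1456 in the WL_HM2 plants, against 4064, 6213 and 7656 in Ws and 1417, 834 and 1503 in Ler (log2 fold change -2.03 ± 0.44 SE, edgeR adjusted p = 0.0017), lower than Ws and overlapping Ler. The salicylic acid marker PR1 was uneven, with 50.2, 51.7 and 279 in the WL_HM2 plants, against 2947, 4598 and 1982 in Ws and 1100.3, 87.2 and 809.8 in Ler (log2 fold change -3.93 ± 1.35 SE, edgeR adjusted p = 0.035), and its call was lost in 5 of 6 fits that left out 1 library. PR2, PR3, PR4 and PR5 were not called, with log2 fold changes of -1.34, -2.04, -0.10 and -1.86. SNC1 and EDS1 belong to groups of near-identical copies, so their counts are uncertain. The summed counts of the list were 7123 to 10660 in WL_HM2, against 26050 to 27960 in Ws and 8544 to 16710 in Ler, so that WL_HM2 overlapped Ler. Of the 11 genes lower, 6 differed from both parents in the same direction and 5 from Ws and not from Ler.

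Of 30 jasmonate and ethylene defense genes, 6 were lower and 0 higher (median -0.65), where 13.8% of all genes were called lower. Only 1 was lower without MPV replicate 2. Of the 6, 1 differed from both parents in the same direction and 5 from Ws and not from Ler. PDF1.2A, a defensin gene, had 588, 45.2 and 36.8 in the WL_HM2 plants, against 749, 16956 and 1941 in Ws and 118, 94.9 and 528 in Ler, where Ws replicate 2 stood far above all other libraries, and the call was lost without MPV replicate 2. PDF1.2A and PDF1.2C are near-identical, so reads may not be assigned to one of them. JAZ6, a jasmonate repressor, was steadier, with 1697, 1449.7 and 1635 in the WL_HM2 plants, against 2444, 2802 and 1812 in Ws and 2639.7, 2834 and 3849.9 in Ler (log2 fold change -0.77 ± 0.16 SE, edgeR adjusted p = 9.3e-04). Of 16 genes of indole glucosinolates and camalexin, 5 were lower and 0 higher, and 2 were lower without WL_HM2 replicate 2 or 3 or MPV replicate 2. CYP81F2, an oxygenase of indole glucosinolates, had 46.1, 29.1 and 52.2 in the WL_HM2 plants, against 117, 420.2 and 185 in Ws and 291, 136 and 124 in Ler (log2 fold change -2.33 ± 0.45 SE, edgeR adjusted p = 4.4e-04). MYB51, the regulator of that pathway, had 67.6, 49.5 and 77.2 in the WL_HM2 plants, against 276, 365 and 271 in Ws and 282, 150.5 and 174 in Ler (log2 fold change -1.97 ± 0.33 SE, edgeR adjusted p = 8.3e-05). In both, WL_HM2 lay under every parent library. PAD3 and CYP71A13, of camalexin synthesis, had log2 fold changes of -4.26 and -4.23, but lost their calls in 5 and 6 of 6 fits that left out 1 library. Aliphatic glucosinolate genes were called at 1 higher and 1 lower of 24. AOP3, a dioxygenase that modifies aliphatic glucosinolate side chains, had 2.05, 7.53 and 2.37 in the WL_HM2 plants, against 6.78, 6.81 and 5.22 in Ws and 21835, 20994 and 15361 in Ler, so WL_HM2 had the low level of Ws. ESM1 and the epithiospecifier gene ESP (AT1G54040), 2 of 9 genes of glucosinolate breakdown, were higher, with log2 fold changes of 1.17 and 0.75. The call of ESP was lost without WL_HM2 replicate 3 or MPV replicate 2.

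Floral promoters were lower. Among 20 flowering-time genes, 8 were down-regulated and 1 up-regulated (median -0.32), where 13.8% of all genes were called lower. Without WL_HM2 replicate 1, 5 were down-regulated. FT, the leaf-made mobile florigen, had 35.9, 19.4 and 14.2 in the WL_HM2 plants, against 109.5, 240.3 and 251 in Ws and 225, 61.1 and 122 in Ler (log2 fold change -2.85 ± 0.66 SE, edgeR adjusted p = 0.0028). SOC1, a floral integrator, had 1336, 1787 and 1519.8 in the WL_HM2 plants, against 3557, 5352 and 3780.3 in Ws and 2376, 2839 and 4955 in Ler (log2 fold change -1.29 ± 0.17 SE, edgeR adjusted p = 4.4e-06). FUL, a MADS-box gene of the floral transition, had 55.3, 61.4 and 45.1 in the WL_HM2 plants, against 258, 359 and 293 in Ws and 122, 74.2 and 256 in Ler (log2 fold change -2.06 ± 0.35 SE, edgeR adjusted p = 1.0e-04). All 3 floral promoters lay under every parent library in every WL_HM2 plant. TEM1, a repressor of FT, was lower too, with 338, 296 and 405 in the WL_HM2 plants, against 826, 1609 and 1227 in Ws and 679, 665 and 971 in Ler (log2 fold change -1.52 ± 0.20 SE, edgeR adjusted p = 3.0e-06). The gene that rose was FRI, an activator of the floral repressor FLC, with means of 104 ± 3.2 in WL_HM2, 102 ± 12.7 in Ws and 22.8 ± 5.8 in Ler (SD, n = 3 each) and a log2 fold change of 0.72 to the MPV. FT is made in phloem companion cells, whose markers summed to 7935 to 13520 in WL_HM2, 15410 to 16780 in Ws and 14720 to 15560 in Ler. Of these 3 markers, SUC2, the phloem sucrose transporter, was lower, with a log2 fold change of -0.57. Their part in the level of FT was not tested.

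Of 20 clock genes, 5 were lower and 0 higher (median -0.23), where 13.8% of all genes were called lower. The 5 were LHY, CCA1, RVE8, RVE4 and LNK2, all of the morning part of the clock. LHY had 263, 340.1 and 269.5 in the WL_HM2 plants, against 1439, 1054 and 1491 in Ws and 1577, 1201 and 1236 in Ler (log2 fold change -2.20 ± 0.24 SE, edgeR adjusted p = 1.3e-07), which left no overlap. CCA1 had 785, 932 and 913 in the WL_HM2 plants, against 3550.2, 1751 and 2079.8 in Ws and 1655, 2062 and 1537 in Ler (log2 fold change -1.26 ± 0.18 SE, edgeR adjusted p = 1.0e-05). RVE8 had 206, 208 and 235 in the WL_HM2 plants, against 738, 593 and 638 in Ws and 655, 570.4 and 462 in Ler (log2 fold change -1.49 ± 0.18 SE, edgeR adjusted p = 8.4e-07). In these 3 genes too WL_HM2 lay under every parent library. In the list of phosphate and nitrate genes, 8 of 23 were lower and 0 higher (median -0.44), a count of 5 without WL_HM2 replicate 2. The nitrate reductase NIA1 had 3306, 2318 and 2414 in the WL_HM2 plants, against 6653, 7493 and 8188 in Ws and 7539, 8599 and 7539 in Ler (log2 fold change -1.51 ± 0.26 SE, edgeR adjusted p = 1.6e-04). NIA2 had 25043, 19935 and 24707 in the WL_HM2 plants, against 41342, 45342 and 37122 in Ws and 41904, 46720.0 and 45778 in Ler (log2 fold change -0.88 ± 0.22 SE, edgeR adjusted p = 0.0042). LBD37, a nitrogen-responsive repressor, had 1962, 2141 and 2251 in the WL_HM2 plants, against 5053, 4997 and 4134 in Ws and 3097, 3651 and 4025 in Ler (log2 fold change -0.97 ± 0.12 SE, edgeR adjusted p = 2.4e-06). In these 3 genes no WL_HM2 plant reached a parent library.

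Senescence genes had 7 of 22 lower and 0 higher (median -0.70), and 3 lower without MPV replicate 2. NAC029, a NAC factor that promotes leaf senescence, had 99.4, 113 and 142 in the WL_HM2 plants, against 735, 1141 and 541 in Ws and 150.3, 218 and 416 in Ler (log2 fold change -2.17 ± 0.45 SE, edgeR adjusted p = 9.6e-04). Abscisic acid and drought genes had 5 of 25 lower, and 1 without WL_HM2 replicate 1. Iron genes had 4 of 21 lower, and 2 without MPV replicate 1 or WL_HM2 replicate 2 or 3, among them the metal-nicotianamine transporter YSL3 (802, 829.8 and 943 in the WL_HM2 plants, against 1407, 2488 and 1894 in Ws and 1758, 1338 and 1919.7 in Ler). The list of gibberellin and brassinosteroid genes had 7 of 27 higher and 2 lower, with 2 higher without MPV replicate 3 and 0 lower without WL_HM2 replicate 1 or 3. GAI, a DELLA repressor of gibberellin growth responses, had 1158, 1294 and 1331 in the WL_HM2 plants, against 497, 579 and 643 in Ws and 698, 779.8 and 933 in Ler (log2 fold change 0.88 ± 0.15 SE, edgeR adjusted p = 1.7e-04). Cell cycle genes had 4 of 35 higher and 3 lower, auxin-response genes 4 of 73 higher and 6 lower, cold-response genes 3 of 17 higher and 3 lower, and heat-shock genes 4 of 12 higher and 1 lower. The medians of auxin-response and heat-shock genes were 0.080 and 0.019, and turned to -0.0070 and -0.055 with total-count scaling. Of 48 light-harvesting and photosystem genes 1 was higher and 1 lower, of 74 ribosomal protein genes 3 were higher and 2 lower, and of 15 Rubisco and carbon-fixation genes and 11 growth-regulating factor genes none was called. Flavonoid genes had 2 of 16 lower, sulfur-deficiency genes 1 of 14 lower, shade genes 1 of 19 higher and 3 lower, and DNA methylation genes 2 of 20 higher. Most of these small counts rested on single libraries. Cell cycle genes had 2 higher without WL_HM2 replicate 1 or 2 or MPV replicate 2, and 2 lower without WL_HM2 replicate 1 or MPV replicate 2. Auxin-response genes had 1 higher without WL_HM2 replicate 3 or MPV replicate 1, and all 10 called in the full fit differed from Ws and not from Ler. Cold-response genes had 1 higher without MPV replicate 1, and 1 lower without WL_HM2 replicate 1 or MPV replicate 2. Heat-shock genes had 2 higher without WL_HM2 replicate 2 or 3 or MPV replicate 3, and 0 lower without WL_HM2 replicate 1 or MPV replicate 2 or 3. Ribosomal protein genes had 0 higher without WL_HM2 replicate 3 or MPV replicate 2 or 3, and 1 lower without WL_HM2 replicate 1 or 2 or MPV replicate 2 or 3. In light-harvesting and photosystem genes the rise was lost in every left-out fit but that without WL_HM2 replicate 1, in which the fall was lost. Flavonoid genes had 0 lower without WL_HM2 replicate 3. Shade genes had 0 higher without WL_HM2 replicate 2 or MPV replicate 2 or 3, and 1 lower without WL_HM2 replicate 1 or MPV replicate 2 or 3. DNA methylation genes had 1 higher without WL_HM2 replicate 1 or 3 or MPV replicate 2 or 3. Of all genes 9.08% were called higher and 13.8% lower.

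**Figure D1:**
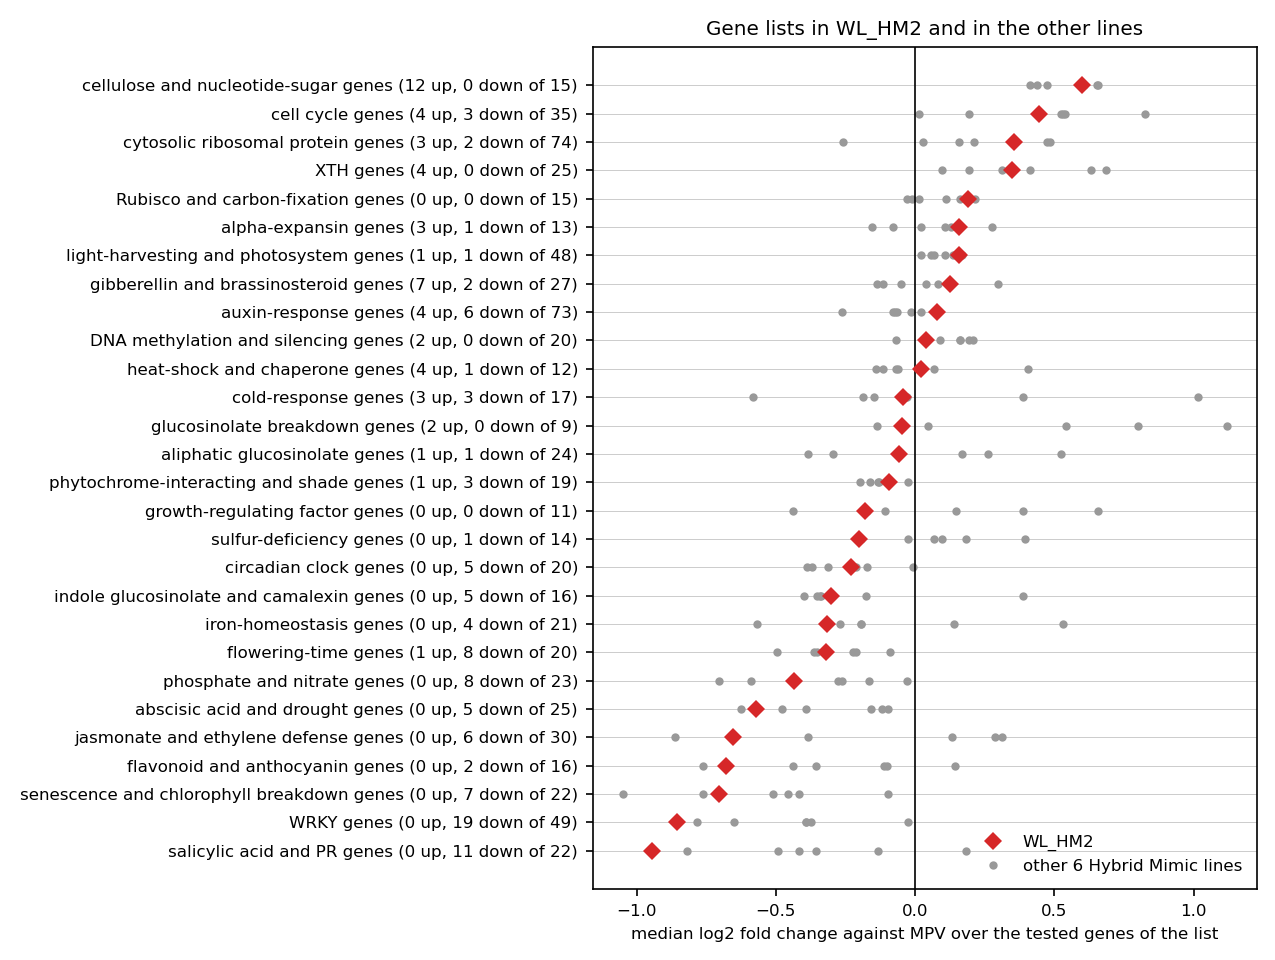
Gene lists in WL_HM2 and in the other 6 Ws/Ler Hybrid Mimic lines. Each row is a list with its counts in WL_HM2, and the horizontal axis is the median log2 fold change against the MPV over the tested genes of the list. Red diamonds are WL_HM2 and grey points are the other lines. WL_HM2 has the lowest median for the salicylic acid and PR list (-0.94) and the WRKY list (-0.86), and 0.60 for cellulose and nucleotide-sugar genes. All lines share the same MPV libraries.

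Beyond both parents, WL_HM2 had 831 genes called against Ws and against Ler in the same direction (4.64% of 17907 tested), of which 297 were higher (1.66%) and 534 lower (2.98%). With total-count scaling 162 were higher and 721 lower. The count was 409 without Ler replicate 3, 497, 518 and 498 without WL_HM2 replicate 1, 2 or 3, and 300 when only the 3 groups were fitted. Among the 831 were 663 protein-coding genes whose higher group had a mean of 100 normalized counts or more. In these 663 no WL_HM2 plant overlapped a parent library, as their selection required. Over all 17907 genes tested, called or not, the 3 WL_HM2 plants lay outside all 6 parent libraries in 2314 (12.9%). The 663 gave the 12 largest rises and 12 largest falls named below. Each of these kept its call against the MPV when any 1 WL_HM2 or MPV library was left out. Whether they kept their calls against each parent was not run.

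Among the 12 genes that rose most was AGP7, an arabinogalactan protein, with 232, 179.7 and 129 in the WL_HM2 plants, against 30.1, 37.0 and 37.4 in Ws and 33.4, 51.3 and 20.1 in Ler (log2 fold change 2.36 ± 0.45 SE, edgeR adjusted p = 3.9e-04). The beta-expansin EXPB1 had 196, 324 and 427 in the WL_HM2 plants, against 24.2, 93.4 and 190.5 in Ws and 33.4, 69.8 and 40.2 in Ler (log2 fold change 2.04 ± 0.55 SE, edgeR adjusted p = 0.0086). FLA2, a fasciclin-like arabinogalactan protein, had 2259, 1747 and 2618 in the WL_HM2 plants, against 229.7, 324 and 745 in Ws and 862, 1360.0 and 521 in Ler (log2 fold change 1.71 ± 0.34 SE, edgeR adjusted p = 6.9e-04). In these 3 genes each WL_HM2 plant lay above each parent library, as the choice of genes required. The early nodulin-like gene ENODL8 had 1704, 1357 and 1709.7 in the WL_HM2 plants, against 165, 105 and 256 in Ws and 604, 942 and 493 in Ler. XTH8 and XTH4, described above, were also among the 12. COW1, a phosphatidylinositol transfer protein of root hair growth, had 159, 153 and 142 in the WL_HM2 plants, against 16.5, 21.4 and 56.5 in Ws and 54.0, 61.1 and 24.9 in Ler (log2 fold change 1.93 ± 0.30 SE, edgeR adjusted p = 4.3e-05). BEN1, which inactivates brassinosteroids, had 125, 123 and 255 in the WL_HM2 plants, against 70.8, 49.6 and 65.2 in Ws and 17.7, 86.2 and 26.6 in Ler (log2 fold change 1.68 ± 0.34 SE, edgeR adjusted p = 7.5e-04). AT1G31690, annotated as a copper amine oxidase, had 662, 754 and 937 in the WL_HM2 plants, against 62.0, 33.1 and 109 in Ws and 186, 272 and 109 in Ler (log2 fold change 2.62 ± 0.59 SE, edgeR adjusted p = 0.0021). Some of these genes had counts at or near 0 in one parent. AT2G27402 had 571, 502 and 982 in WL_HM2 and 64.0, 114 and 253 in Ws, and was at 0 in all Ler libraries (log2 fold change 3.2 ± 0.48 SE, edgeR adjusted p = 1.9e-05). AT3G21950, annotated as a methyltransferase, had 347, 419.7 and 549 in WL_HM2 and 192, 308 and 227 in Ler, and was at 0 in all Ws libraries (log2 fold change 1.88 ± 0.27 SE, edgeR adjusted p = 1.6e-05). AT4G02850, annotated as a PhzC/PhzF family protein, had 252, 245 and 353 in the WL_HM2 plants, against 39.7, 38.9 and 155 in Ws and 4.91, 1.09 and 0 in Ler (log2 fold change 2.77 ± 0.63 SE, edgeR adjusted p = 0.0023).

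Among these genes the largest fall from the MPV was in AT2G32160, annotated as a methyltransferase, with 26.6, 57.0 and 61.7 in the WL_HM2 plants, against 147, 228 and 136 in Ws and 3042, 3810.5 and 6335 in Ler (log2 fold change -5.54 ± 0.35 SE, edgeR adjusted p = 2.2e-12). AT1G51270, annotated as vesicle-associated protein 1-4, had 7.17, 4.30 and 9.50 in the WL_HM2 plants, against 42.6, 73.0 and 73.9 in Ws and 299.6, 245 and 765 in Ler (log2 fold change -5.13 ± 0.72 SE, edgeR adjusted p = 8.5e-06). AT1G56120, a leucine-rich repeat receptor kinase, had 274, 201 and 308 in the WL_HM2 plants, against 498, 1191 and 1256 in Ws and 4170.3, 3043 and 3372 in Ler (log2 fold change -3.11 ± 0.44 SE, edgeR adjusted p = 1.1e-05). All 3 had their highest counts in Ler, and WL_HM2 was under Ws as well. SIS, a salt-induced serine-rich protein, had 82.0, 112 and 83.1 in the WL_HM2 plants, against 1012, 1768 and 714 in Ws and 149, 206 and 485 in Ler (log2 fold change -2.96 ± 0.35 SE, edgeR adjusted p = 6.3e-07), here with the highest counts in Ws. BT2, a nitrate- and sugar-responsive BTB protein, had 327, 331 and 414 in the WL_HM2 plants, against 484, 3771 and 2079.8 in Ws and 1949, 3999 and 3179 in Ler (log2 fold change -2.84 ± 0.48 SE, edgeR adjusted p = 9.5e-05). RVE2, a clock-related MYB factor, had 41.0, 37.7 and 33.2 in the WL_HM2 plants, against 79.5, 433 and 354 in Ws and 261, 145 and 146 in Ler (log2 fold change -2.67 ± 0.45 SE, edgeR adjusted p = 1.0e-04). The ethylene response factor gene ERF-1 had 64.5, 107 and 91.4 in the WL_HM2 plants, against 546, 1194 and 502 in Ws and 347, 173 and 351 in Ler (log2 fold change -2.56 ± 0.49 SE, edgeR adjusted p = 4.7e-04). PNP-A, a secreted peptide that affects water and ion balance, had 19.5, 29.1 and 47.5 in the WL_HM2 plants, against 82.4, 164 and 198 in Ws and 840.0, 168 and 378 in Ler (log2 fold change -3.27 ± 0.56 SE, edgeR adjusted p = 1.1e-04), and Ler replicate 1 was the highest of the 9 libraries. With FT, AT4G01390, AT1G34060 and AT4G15260, whose log2 fold changes were -2.85, -3.37, -3.36 and -2.93, these make the 12 largest falls.

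**Figure D2:**
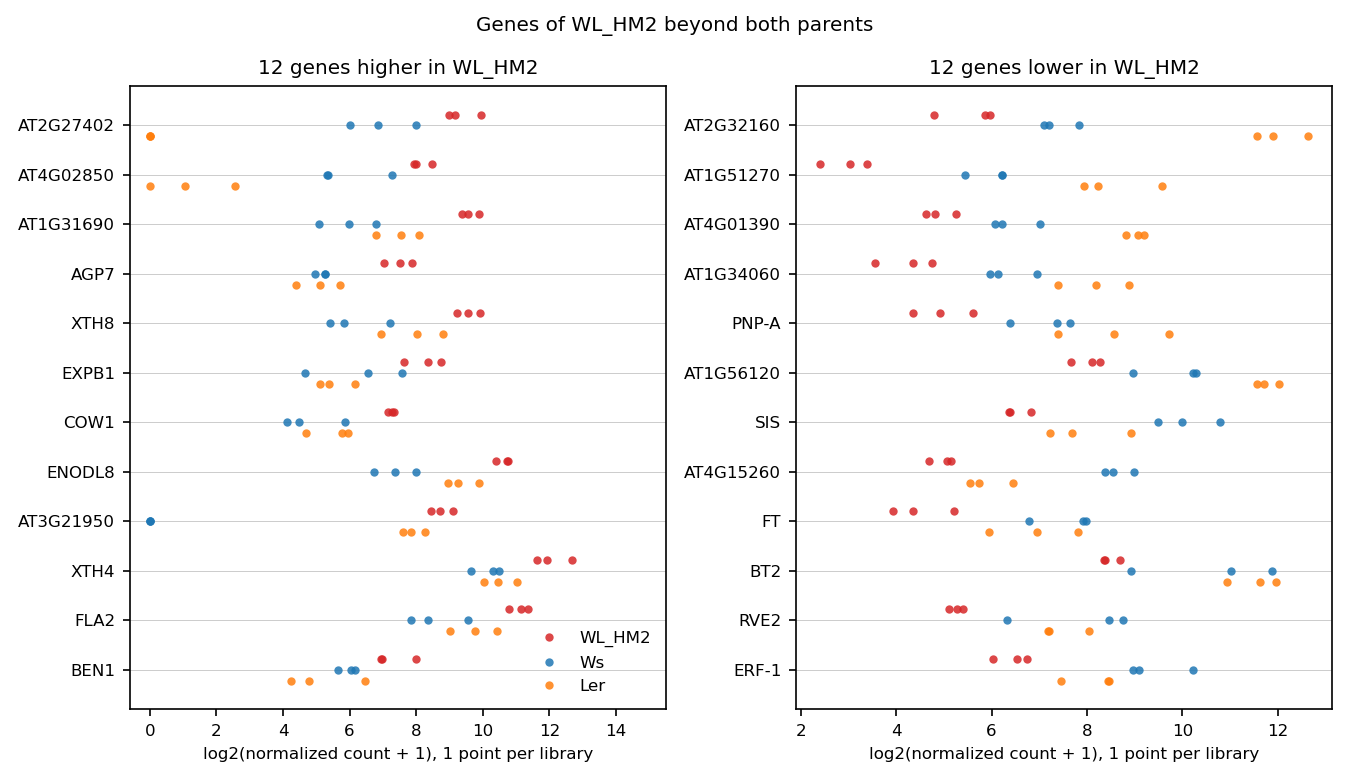
The 24 genes of WL_HM2 furthest from the MPV among those beyond both parents. The horizontal axis is log2 of the normalized count plus 1, with 1 point per library, red for WL_HM2, blue for Ws and orange for Ler. In each gene the 3 red points lie to one side of all 6 parent points, which the choice of genes required. The left panel has 12 genes higher and the right panel 12 lower, where AT2G32160 has the largest fall (log2 fold change -5.54).

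Where the parents differed, WL_HM2 mostly had the level of Ler. The parental position of a gene was set to 0 at the mean log2 level of Ler and 1 at that of Ws, for 1830 genes that were called between Ws and Ler and differed at least 2-fold. Its median was 0.033 in WL_HM2, with 1449 genes nearer Ler (79.2%) and 381 nearer Ws, and single plants had medians of 0.013 to 0.051. The other lines had medians of 0.015 (WL_HM6), 0.17 (WL_HM7), 0.20 (WL_HM4), 0.26 (WL_HM5), 0.28 (WL_HM1) and 0.45 (WL_HM3). The WL_HM6 median lay within the range of the WL_HM2 plants, and the others above it. The parent libraries set both ends of the scale, so these are descriptions without a test.

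The Ws-like genes of WL_HM2 lay in a few stretches. By chromosome the median position was 0.079 on chromosome 1, 0.53 on chromosome 2, -0.034 on chromosome 3, 0.0050 on chromosome 4 and 0.0010 on chromosome 5. In 120 windows of 15 such genes in gene order, 100 windows had a median under 0.5 and 89 of these under 0.2, while 20 were at 0.5 or more and 9 over 0.8. The 20 windows nearer Ws were 7 in the middle of chromosome 1, between AT1G34770 and AT1G64270, 8 on chromosome 2, the first 4 of chromosome 4, between AT4G00234 and AT4G07507, and 1 on chromosome 5. All windows of chromosome 3 were nearer Ler. FRI and AOP3, in which WL_HM2 had the level of Ws, lie in this stretch of chromosome 4.

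**Figure D3:**
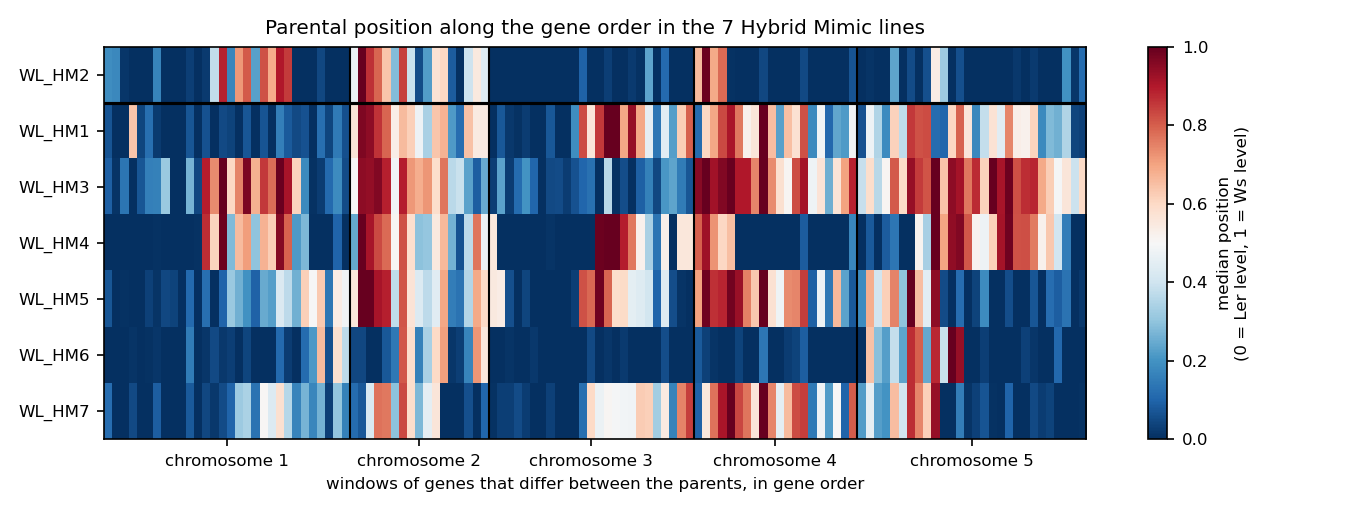
Parental position of WL_HM2 (top row) and the other 6 Hybrid Mimic lines in 120 windows of 15 genes that differ between the parents. Windows follow the gene order of chromosomes 1 to 5 on the horizontal axis and are not drawn to physical length, and the colour runs from 0 (blue, Ler level) to 1 (red, Ws level), with medians outside that range drawn at its ends. In WL_HM2 100 windows are nearer Ler, and 20 nearer Ws.

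Genes with reads in only one parent gave a sharper reading. Expressed and silent here refer to reads counted on the reference TAIR10, and why a gene had few or no reads was not tested. A gene was taken as on-off when one parent had at most 5 counts in each library and the other at least 50, and 141 genes met this. WL_HM2 was like Ler in 95 (67.4%), like Ws in 38 (27%), between them in 3, and its plants differed in 5. Of 66 genes expressed in Ler alone, 48 were expressed in WL_HM2 and 17 silent, and of 75 expressed in Ws alone, 21 were expressed and 47 silent. WL_HM2 was like Ler in 34 of 39 genes on chromosome 3 and 31 of 35 on chromosome 5, and in 16 of 29 on chromosome 1 and 14 of 26 on chromosome 4. On chromosome 2 it was like Ler in 0 of 12 and like Ws in 11. The share like Ler was 72.3% in WL_HM6 and 24.8% to 37.6% in the other 5 lines.

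Named on-off genes, chosen after their values were seen, show both states. The receptor-like kinase gene CRK4 had 1.02, 1.08 and 0 in the WL_HM2 plants, against 956, 1346 and 1167 in Ws and 0, 0 and 2.41 in Ler. PLC8, a phospholipase C, had 843, 883 and 956 in the WL_HM2 plants, against 1.94, 2.92 and 0.87 in Ws and 911, 866 and 982 in Ler. CRK4 was therefore silent in WL_HM2 and PLC8 expressed, each as in Ler. In 5 genes the plants of WL_HM2 did not share a state. AT5G59660, a leucine-rich repeat kinase, had 77.8, 89.3 and 1.19 in the WL_HM2 plants, against 197, 135 and 99.2 in Ws and 2.95, 2.18 and 1.61 in Ler. Tic20-IV, a subunit of the chloroplast protein import channel, had 35.9, 30.1 and 5.94 in the WL_HM2 plants, against 59.1, 96.3 and 48.7 in Ws and 3.93, 5.45 and 3.22 in Ler. In both genes replicate 3 alone was at the Ler level. The others were AT4G04293, AT5G17090 and AT5G24215, in which the counts of WL_HM2 lay near the limits that define the 2 states.

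What set WL_HM2 apart from the other 6 lines was a smaller group of genes. Against the mean of those lines, 963 genes were called (5.38% of 17907), of which 534 were higher (2.98%) and 429 lower (2.4%), at a median over all genes of 0.0091. For 122 genes (0.681%) the 3 WL_HM2 plants lay outside all 18 other libraries, and 93 of these were called and are taken as set apart (0.519%), 40 higher and 53 lower. With total-count scaling the splits were 417 higher and 486 lower among 903 called, and 32 higher and 66 lower among 98 set apart. The same count was lower in WL_HM5 (67) and WL_HM7 (90), and higher in WL_HM6 (168), WL_HM4 (175), WL_HM1 (233) and WL_HM3 (348). It depends on the lines compared: it was 233 without WL_HM4 and 153 without WL_HM6, and 166 without WL_HM2 replicate 3, of which 68 were among the 93. Without WL_HM3, whose replicate 3 stood apart, 964 genes were called and 128 set apart.

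The 93 genes were unevenly placed. Chromosome 5 held 47 (1.13% of its 4174 tested genes), chromosome 1 held 21 (0.45%), chromosome 4 held 14 (0.513%), chromosome 3 held 7 (0.194%) and chromosome 2 held 4 (0.148%). Of the 93, 71 were called between Ws and Ler, and in 51 of these WL_HM2 was nearer Ler and in 20 nearer Ws. For set-apart genes, nearer was judged on mean normalized counts and not on log2 levels as in the parental position. The 2 measures can place a gene on different sides, as in AT5G17090 and AT1G01355. Beyond both parents were 18. A stretch of chromosome 5 from AT5G16980 to AT5G23770, chosen after the values were seen, held 33 set-apart genes among 461 tested (7.16%), 23 of them nearer Ler and 5 nearer Ws. The median parental position over its 42 parent-differing genes was 0.029 in WL_HM2, against 0.41 to 0.88 in the other 6 lines. Within it lay the window AT5G18010 to AT5G19750, at -0.087 in WL_HM2 and 0.52 to 0.85 in the other lines. That window and AT2G22800 to AT2G24260 (0.39 in WL_HM2, 0.57 to 0.72 in the other lines) were the only 2 of 120 in which WL_HM2 alone was nearer Ler, and in none was it alone nearer Ws. At the start of chromosome 1, AT1G01290 to AT1G05830, also chosen after the values were seen, held 13 set-apart genes among 356 (3.65%), 10 of them nearer Ws. By parental position WL_HM2 was mostly nearer Ler over the 30 parent-differing genes of this stretch, with 19 nearer Ler and 11 nearer Ws. Their median position was 0.19, against -0.14 to 0.071 in the other lines.

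Of the 93 genes, 71 were protein-coding with a mean of 100 normalized counts or more in WL_HM2 or in the other lines, and the 10 largest rises and 10 largest falls are named from these. Genes below that limit can differ more by ratio, such as AT5G17090 (mean 35.7 in WL_HM2, 0.19 in the other lines) and AT1G03106 (mean 0.36 in WL_HM2, 95.7 in the other lines). The 4 largest rises among the 71 lay in the chromosome 5 stretch. The small auxin up RNA gene SAUR20 had 203, 282 and 328 in the WL_HM2 plants, against 4.85, 4.86 and 10.4 in Ws and 134, 194 and 209 in Ler, and between 2.96 and 15.8 in the 18 libraries of the other 6 lines, with a median of 10.3 (log2 fold change 4.76 ± 0.19 SE, edgeR adjusted p = 7.4e-18). Its neighbour SAUR19 was lower, with 4.10, 3.23 and 7.12 in the WL_HM2 plants, against 120.2, 135 and 85.2 in Ws and 8.84, 16.4 and 8.85 in Ler, and between 52.3 and 126 in the 18 libraries of the other 6 lines, with a median of 90.8 (log2 fold change -4.22 ± 0.41 SE, edgeR adjusted p = 4.6e-09). The SAUR19 to SAUR24 genes, which promote cell expansion, are near-identical, so their single counts are uncertain. In this pair WL_HM2 had the Ler pattern and the other lines the Ws pattern. The aquaporin gene SIP1;2 had 88.1, 135 and 138 in the WL_HM2 plants, against 9.69, 8.76 and 13.1 in Ws and 74.7, 89.4 and 129 in Ler, and between 4.09 and 32.7 in the 18 libraries of the other 6 lines, with a median of 10.2 (log2 fold change 3.41 ± 0.24 SE, edgeR adjusted p = 3.6e-12). AT5G17100, annotated in the cystatin superfamily, had 142, 103 and 122 in the WL_HM2 plants, against 6.78, 2.92 and 7.83 in Ws and 141, 123 and 143 in Ler, and between 3.11 and 40.3 in the 18 libraries of the other 6 lines, with a median of 7.75 (log2 fold change 3.74 ± 0.25 SE, edgeR adjusted p = 9.9e-13). AT5G18340, an ARM repeat protein, had 142, 163 and 163 in the WL_HM2 plants, against 32.0, 35.0 and 36.5 in Ws and 153, 161 and 202 in Ler, and between 10.7 and 29.8 in the 18 libraries of the other 6 lines, with a median of 20.2 (log2 fold change 3.01 ± 0.14 SE, edgeR adjusted p = 1.6e-16). In these 4 genes that rose WL_HM2 overlapped Ler and lay above Ws. PHT4;5, a plastid phosphate transporter, had 1067, 1212 and 1130.3 in the WL_HM2 plants, against 706, 707 and 535 in Ws and 1176, 1466 and 1862 in Ler, and between 332 and 754 in the 18 libraries of the other 6 lines, with a median of 443 (log2 fold change 1.39 ± 0.11 SE, edgeR adjusted p = 1.4e-10). WL_HM2 thus overlapped Ler. The other lines had line means of 352 to 584, under the Ws mean of 649, and only WL_HM3 replicate 3 (754) was above the lowest Ws library.

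Lower in WL_HM2 was EFR, the immune receptor for bacterial elongation factor Tu. EFR had 58.4, 78.6 and 66.5 in the WL_HM2 plants, against 199, 182 and 261 in Ws and 82.5, 66.5 and 84.5 in Ler, and between 176 and 374 in the 18 libraries of the other 6 lines, with a median of 241 (log2 fold change -1.87 ± 0.17 SE, edgeR adjusted p = 1.4e-09), so that WL_HM2 overlapped Ler and the other 6 lines overlapped Ws. AT5G20450, annotated as a myosin, had 16.4, 18.3 and 20.2 in the WL_HM2 plants, against 91.1, 73.0 and 97.4 in Ws and 15.7, 15.3 and 16.1 in Ler, and between 76.0 and 123 in the 18 libraries of the other 6 lines, with a median of 104 (log2 fold change -2.49 ± 0.18 SE, edgeR adjusted p = 5.0e-12). Outside that stretch, EXPA9 had 71.7, 75.3 and 51.0 in WL_HM2 and between 107 and 445 in the 18 libraries of the other 6 lines, with a median of 214 (log2 fold change -1.67 ± 0.23 SE, edgeR adjusted p = 6.7e-06). NAC003, a NAC domain factor at the start of chromosome 1, had 30.7, 25.8 and 17.8 in the WL_HM2 plants, against 24.2, 50.6 and 48.7 in Ws and 114, 94.9 and 80.5 in Ler, and between 42.8 and 404 in the 18 libraries of the other 6 lines, with a median of 75.1 (log2 fold change -1.91 ± 0.41 SE, edgeR adjusted p = 0.0024). AT1G02770 had 10.2, 1.08 and 5.94 in the WL_HM2 plants, against 24.2, 34.0 and 33.9 in Ws and 166, 132 and 148 in Ler, and between 48.4 and 222 in the 18 libraries of the other 6 lines, with a median of 117 (log2 fold change -4.28 ± 0.37 SE, edgeR adjusted p = 4.8e-10). AT1G02260, a divalent ion symporter, had 153, 171 and 175 in the WL_HM2 plants, against 231, 285 and 225 in Ws and 424, 373 and 528 in Ler, and between 421 and 563 in the 18 libraries of the other 6 lines, with a median of 480.4 (log2 fold change -1.56 ± 0.10 SE, edgeR adjusted p = 2.1e-13). These last 2 genes lay under both parents in WL_HM2. AT1G31910, annotated as a GHMP kinase, was higher than in both parents and all other lines, with 3812, 3828 and 3814 in the WL_HM2 plants, against 2583, 2682 and 2623 in Ws and 1707, 1704 and 1796 in Ler, and between 725 and 3119.5 in the 18 libraries of the other 6 lines, with a median of 1863 (log2 fold change 1.14 ± 0.08 SE, edgeR adjusted p = 3.6e-12). GA2, the ent-kaurene synthase of gibberellin synthesis, was chosen after its values were seen. It averaged 955 ± 77.5 in WL_HM2, 319 ± 32.8 in Ws and 569 ± 115 in Ler (SD, n = 3 each), and lay between 386 and 889 in the other 6 lines (log2 fold change to those lines 0.68 ± 0.12 SE, edgeR adjusted p = 3.3e-04). Of the 20 genes named under that limit, 18 kept their calls in all settings tried, the exceptions being AT5G18840 and AT3G55290.

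**Figure D4:**
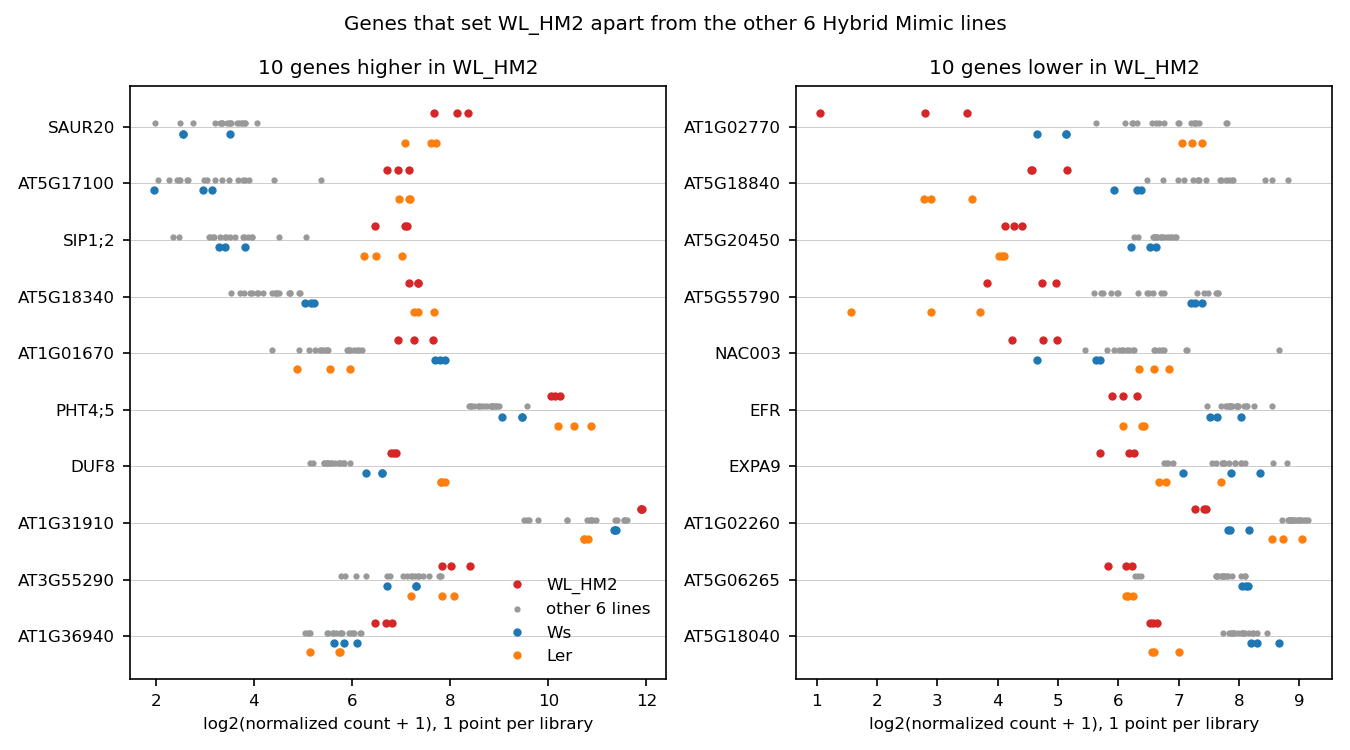
The 10 largest rises and 10 largest falls of WL_HM2 against the other 6 Hybrid Mimic lines among the set-apart protein-coding genes with a mean of 100 normalized counts or more in either. The horizontal axis is log2 of the normalized count plus 1, with 1 point per library, red for WL_HM2, grey for the other 6 lines, blue for Ws and orange for Ler. The red points lie outside all 18 grey points in each gene, with SAUR20 at the top of the rises shown (log2 fold change 4.76) and AT1G02770 at the end of the falls shown (-4.28).

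By gene list, few members separated WL_HM2 from its fellow lines. Its cellulose list had 12 of 15 genes higher than the MPV, against 6 to 15 in the other lines, and no gene of that list was called against the other 6 lines. In the WRKY list its median of -0.86 was the lowest of the 7 lines (-0.78 to -0.025 in the others), though WL_HM4 had more called lower (25 of 49) and WL_HM5 as many (19). In the salicylic acid and PR list its median of -0.94 was also the lowest (-0.82 to 0.18), with 11 called lower against 1 to 9. All lines share the MPV libraries. Tested directly against the mean of the other 6 lines, 2 of 50 WRKY genes were lower, WRKY58 (-1.47) and WRKY19 (-0.54), and 3 of 22 salicylic acid and PR genes, ACD6 (-2.17), EDS1 (-1.01) and SNC1 (-0.70), where 2.4% of all genes were called lower. ACD6 had 699.6, 527 and 1456 in WL_HM2 and between 891 and 9389 in the 18 libraries of the other 6 lines, with a median of 5522 (log2 fold change -2.17 ± 0.39 SE, edgeR adjusted p = 2.9e-04). Among flowering genes, FRI was higher (1.18) and MAF1 and MAF5 lower (-0.52 and -2.92), and among clock genes LHY was lower (-0.79). No clock gene was called lower without WL_HM2 replicate 1 or 3, 1 flowering gene was without WL_HM2 replicate 2, and 1 WRKY gene was without WL_HM2 replicate 1 or 2, WL_HM1 or WL_HM5. Of 7 floral organ markers, SEP1 (AT5G15800) and SEP3 were higher than in the other lines (1.79 and 1.65) and 0 were called lower. The median over the 7 was -0.14 against those lines and -1.42 against the MPV. The list summed to 118.7 to 141 in WL_HM2 and 16.0 to 349 in the other lines.

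Some genes moved to opposite sides of the MPV in WL_HM2 and in the other lines, with the difference itself called. Both comparisons share the MPV libraries. RPP5, a resistance gene against downy mildew in a cluster of near-identical copies, was at a log2 fold change of 0.60 to the MPV in WL_HM2 and -1.04 in the mean of the other 6 lines. FOLT1, the folate carrier of chloroplasts, was at 0.82 in WL_HM2 and -0.77 in the other lines, and EFR at -1.11 and 0.77. In each of these genes the parents differed too. EFR was set apart, while RPP5 and FOLT1 were not, as some libraries of the other lines reached the WL_HM2 level. In the window that holds RPP5 (AT4G16900 to AT4G18990), WL_HM4 and WL_HM6 had median positions of -0.19 and -0.15, beside -0.35 in WL_HM2. In that of FOLT1 (AT5G65410 to AT5G67260), 5 of the other 6 lines were nearer Ler, as was WL_HM2. AT5G33251 had 2.05, 1.08 and 2.37 in the WL_HM2 plants, against 648, 607 and 678 in Ws and 0, 0 and 0 in Ler, and was like Ws in all 18 libraries of the other lines. Against the F1 hybrids, WL_HM2 had 5057 genes called (28.2% of 17907), 2444 higher (13.6%) and 2613 lower (14.6%), and 1088 higher and 3822 lower with total-count scaling. This stood beside 2898 in WL_HM7 and 7292 in WL_HM4, the lowest and the highest of the 7 lines. The WL_HM2 count was 2951 without WL_HM2 replicate 3.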

How the data were processed

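RNA of rosette leaves was sequenced, and the authors deposited 1 table of raw read counts per gene, made with STAR 2.5.3a on TAIR10. The column of STAR's strand setting was not given in the sources used here, so reads of overlapping antisense genes and of near-identical copies (SAUR19 to SAUR24, PDF1.2A and PDF1.2C, EDS1, the SNC1 and RPP5 cluster) are uncertain. Samples were grouped by their labels. Genes with 50 counts in at least 1 library were kept. For the MPV, counts of same-numbered Ws and Ler libraries were scaled to 1 size, averaged at 50% each and rounded, and 36 libraries (the 7 lines, 2 lines of small plants, F1 and MPV) were fitted together. Parents, F1 and lines were compared in a fit of 39 deposited libraries. Tests used edgeR 4.0.16 (TMM, glmQLFit, glmQLFTest) in R 4.3.3 with Benjamini-Hochberg adjustment over all genes, and were tested on simulated data. Parental position used log2 levels with a prior count of 0.5. An on-off gene was taken as expressed at 25% of the expressing parent's mean. Names came from RefSeq, which matched 37051 of 37336 gene IDs.

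Named genes were, among protein-coding genes with a mean of 100 normalized counts or more in the higher group, the 12 largest rises and falls beyond both parents, the 10 largest rises and falls among set-apart genes, and without that limit up to 4 called members per list, 20 genes the study names and the on-off genes that differed between plants. Those beyond both parents also had to show no WL_HM2 library overlapping a parent library. Other genes were chosen after their values were seen. The members and lists were chosen with earlier results of these data known. Alternatives were DESeq2 1.42.0, other scalings, filters, sample sets and thresholds, a replicate block, and leaving out each library or line.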

Additional observations from a re-analysis of the deposited data

Results flagged for a closer look

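In 22 named genes the changes from the MPV had opposite signs in WL_HM2 and in the mean of the other 6 lines. In each, the difference was called by edgeR's test of WL_HM2 against those lines. The value given is the log2 fold change of WL_HM2 against the other 6 lines. In the chromosome 5 stretch from AT5G16980 to AT5G23770 these were SAUR20 (4.76), AT5G17100 (3.74), SIP1;2 (3.41), AT5G18340 (3.01) and PHT4;5 (1.39), all higher in WL_HM2, and SAUR19 (-4.22), AT5G18840 (-2.94), AT5G20450 (-2.49), EFR (-1.87) and AT5G18040 (-1.47), all lower. SAUR20 was at a log2 fold change of 1.56 to the MPV in WL_HM2 and -3.19 in the other lines, and AT5G18840 at -0.63 in WL_HM2 and 2.32 in the other lines.

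At the start of chromosome 1 they were AT1G01670 (1.70), NAC003 (-1.91), AT1G02260 (-1.56) and AT1G02770 (-4.28). AT1G01670 was at 0.25 to the MPV in WL_HM2 and -1.45 in the other lines, so that mainly the other lines moved, while AT1G02770 was at -3.91 in WL_HM2 and 0.38 in the other lines. Elsewhere AT1G31910 (1.14), AT1G36940 (0.99) and AT3G55290 (1.03) were higher, and CYCB1;5 (-2.01), a B-type cyclin, ACD6 (-2.17), EXPA9 (-1.67), AT5G06265 (-1.50) and AT5G55790 (-2.09) were lower. Both values against the MPV share its libraries.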

How the results depend on the processing

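Leaving out 1 library at a time gave 2537 to 3902 calls for WL_HM2 against the MPV, 409 to 890 genes beyond both parents, 124 to 166 set apart from the other 6 lines, 2951 to 3635 against the F1 hybrids and 3087 to 6863 for Ws against Ler, the last added after seeing the data. For the set-apart genes and the F1 hybrids only WL_HM2 libraries were left out. No single library of the other 6 lines or of the F1 hybrids was left out. At an unadjusted p of 0.05 the counts were 6513 against the MPV, 2261 beyond both parents and 2831 against the other lines. Only the groups compared gave 300 genes beyond both parents. A minimum of 50 counts in every library, which tests fewer genes, gave 446 called against the other lines and 52 set apart, and the set-apart count was 233 without WL_HM4 and 153 without WL_HM6. The share of on-off genes like Ler was 61.6% with at most 10 and at least 30 counts in the parents and 63.8% with expression at 50% of the parent's mean, and the median parental position was 0.094 at a fold of 4. The cause of these moves was not tested. DESeq2 called 4632 genes against the MPV, 1065 beyond both parents and 1225 against the other lines.

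The replicate block gave 4275 calls against the MPV, 868 beyond both parents, 993 against the other lines, 91 set apart and 5080 against the F1 hybrids, and PDF1.2C and CYP71A13 lost their calls. Deviations of same-numbered WL_HM2 and MPV libraries correlated at 0.155, -0.018 and 0.171, so the numbers were not taken to pair plants, and 2 of 3 correlated best with their own number. With WL_HM7, the one group where all 3 passed 0.1, they correlated at 0.315, 0.212 and 0.205, each best with its own number, and the block left the counts against the other lines within 1.5 times. Of 116 named genes called against the MPV, 66 kept the call in every setting and 50 lost it when some library was left out, and 0 reversed direction. Genes of a few counts and changes below the spread of 3 plants are not resolved at this depth.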
